A study of Homo sapiens with 36 samples.

Results

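The comparison described here was the response of A375 melanoma cells to combined BRAF and MEK inhibition while the nuclear receptor NR2F1 was induced. Its members were 6 of the 36 RNA-Seq libraries of the series, chosen by label alone: 3 libraries of BRAFi + MEKi + DOX and 3 of DMSO + DOX, all from A375TR-NR2F1 cells. A375 is an established human melanoma line with a BRAF-V600E mutation. The TR cells carry a Tet repressor and a lentiviral NR2F1 cDNA that doxycycline (DOX) switches on. Both groups received 100 ng/mL DOX for 24 hours and then for 72 hours more, together with either DMSO or 1 μM of the BRAF inhibitor PLX4720 plus 35 nM of the MEK inhibitor PD0325901. The matching A375 libraries without DOX, 3 of BRAFi + MEKi and 3 of DMSO, served to show where the response differed. There was no library of cells given DOX without the NR2F1 insert among those used here, so effects of DOX and of NR2F1 cannot be told apart. Reads from the introduced and the endogenous NR2F1 were counted together.

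BRAF-V600E keeps the MEK and ERK kinases active without growth factor. ERK then drives transcription of cyclin D1, of ETS and AP-1 factors and of its own brakes, the DUSP phosphatases and the Sprouty proteins. Cyclin D1 in turn lets the RB protein release E2F factors, which switch on the genes of DNA replication, and later in the cycle the MuvB complex and FOXM1 switch on the genes of mitosis. NR2F1, also called COUP-TF1, is an orphan nuclear receptor known from neural crest development and from studies of dormant tumor cells. In melanoma cells, loss of ERK signaling is known to bring cell cycle arrest and a shift in the pigment cell program governed by MITF and SOX10.

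The promoters of 6 genes on which the results turn are shown first, because they hold the sites through which these programs are known to be read. CDC20 stands for mitosis, E2F1 for the G1 switch, MCM6 for DNA replication, CXCL8 for the secreted cytokines, LAMP1 for the lysosome and DCT for pigmentation. Each stretch lies upstream of the annotated start site, reads 5′ to 3′ on the strand of its gene, and was read from RefSeq promoters on GRCh38.p14. Capitals mark every match, on either strand, to the letters searched. These were TTTGAA (the cell cycle genes homology region, CHR) and CCAAT (the NF-Y box) in CDC20, TTTNNCGC (the E2F core) and CCAAT in E2F1 and MCM6, TGACTCA (AP-1) and GGAAATTCC (NF-kB) in CXCL8, and TCANGTG (the E-box bound by MITF and its TFE relatives) in LAMP1 and DCT. Neighboring matches overlapped in E2F1, MCM6 and LAMP1.
CDC20, chr1:43358791-43358942, plus strand: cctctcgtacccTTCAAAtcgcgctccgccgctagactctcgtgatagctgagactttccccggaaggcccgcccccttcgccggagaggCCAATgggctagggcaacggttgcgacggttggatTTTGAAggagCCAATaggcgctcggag
E2F1, chr20:33686386-33686576, minus strand: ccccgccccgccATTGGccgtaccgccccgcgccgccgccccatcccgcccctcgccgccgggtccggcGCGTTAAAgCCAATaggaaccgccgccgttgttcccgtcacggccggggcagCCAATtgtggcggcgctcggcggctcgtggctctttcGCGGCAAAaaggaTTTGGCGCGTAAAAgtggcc
MCM6, chr2:135876485-135876607, minus strand: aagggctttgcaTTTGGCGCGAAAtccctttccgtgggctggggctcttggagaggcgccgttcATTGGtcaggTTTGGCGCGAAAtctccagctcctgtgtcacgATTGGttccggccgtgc
CXCL8, chr4:73740420-73740498, plus strand: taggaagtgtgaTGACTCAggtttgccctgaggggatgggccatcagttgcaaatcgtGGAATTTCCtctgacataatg
LAMP1, chr13:113297034-113297229, plus strand: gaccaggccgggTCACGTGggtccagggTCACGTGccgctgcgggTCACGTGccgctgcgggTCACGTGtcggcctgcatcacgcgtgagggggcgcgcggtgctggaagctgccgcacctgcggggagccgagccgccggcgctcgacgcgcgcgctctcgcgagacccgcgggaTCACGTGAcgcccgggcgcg
DCT, chr13:94479799-94479909, minus strand: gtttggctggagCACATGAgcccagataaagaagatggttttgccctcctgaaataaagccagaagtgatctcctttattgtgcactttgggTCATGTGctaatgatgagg

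The deposited values are normalized expression per gene, not read counts, and their sum was 29653207 to 30548013 in the DMSO + DOX libraries and 27378016 to 27503298 in the BRAFi + MEKi + DOX libraries. Between 22048 and 23506 genes had a value above 0 in these 6 libraries. Sequencing depth is not given with the values. The commonest low value, which may be near that of 1 read, was 0.49 in DMSO + DOX replicate 1. It was 0.85 to 1.03 in the other libraries of these groups, so DMSO + DOX replicate 1 may have been sequenced deeper. Library profiles correlated across genes at r = 0.976 to 0.982 within DMSO + DOX, 0.976 to 0.981 within BRAFi + MEKi + DOX and 0.948 to 0.960 between the groups. Replicate 3 lay apart from replicates 1 and 2 in each A375 group. For example, MKI67, the Ki-67 proliferation antigen, stood at 1674, 1553 and 3939 in the BRAFi + MEKi + DOX libraries and at 11347, 9444 and 5995 in DMSO + DOX. With replicate 3 left out of all 4 A375 groups, an alternative chosen after the data were seen, 3912 genes were called higher and 3754 lower with DOX, close to the numbers with all libraries given below. Of the melanoma markers, SOX10, MITF, S100B and PRAME were abundant, whereas TYR was at 0 in all 6 libraries and MLANA was at most 0.97. Among markers of other cell types, KRT1, DSG3 and CLDN5 were at 0 in every one of them, but others were called in either direction: 3 higher and 1 lower of 6 keratinocyte markers tested, 2 and 2 of 5 endothelial markers, and 2 and 2 of 7 fibroblast markers. Among those higher, KRT14 was at 57.1 to 74.1 with DMSO + DOX and 143 to 214 with the inhibitors, KRT5 at 0 to 0.73 and 7.89 to 33.2, VWF at 8.60 to 11.5 and 29.4 to 72.9, and TEK at 11.5 to 33.5 and 62.8 to 126. Among those lower, SFN was at 83.0 to 142 with DMSO + DOX and 8.55 to 16.4 with the inhibitors, and PECAM1 at 2.13 to 40.9 and at 0 in all 3. The summed level of the 5 leukocyte markers tested was 4447 to 4910 with DMSO + DOX and 2162 to 3702 with the inhibitors, nearly all of it CD68, a lysosomal protein. Of these 5, 1 was called higher and 0 lower. PTPRC was at 0 to 1.31 with DMSO + DOX and 3.80 to 6.52 with the inhibitors. Summed fibroblast markers were 1515 to 1924 and 1629 to 2417, keratinocyte markers 978 to 1108 and 1074 to 1420, and endothelial markers 86.6 to 206 and 203 to 314, and the part of these markers in the results was not tested.

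NR2F1 itself (ENSG00000175745, chr5:93583222-93594611, GRCh38) was high in all 6 libraries. Its normalized expression was 19001, 31632 and 17271 with DMSO + DOX and 23714, 35683 and 14995 with BRAFi + MEKi + DOX, so the groups overlapped. The inhibitors shifted it by 0.10 ± 0.27 (log2 fold change ± SE, n = 3 per group, limma adjusted p = 0.83). Without DOX it stood at 405 to 563 with DMSO and at 1223 to 1431 with the inhibitors, a log2 fold change of 1.45 (limma adjusted p = 0.0007). The NR2F1 level was therefore more than an order of magnitude above that of every library without DOX, with and without inhibitors.

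Across all genes, the inhibitors still changed a large part of the transcriptome. Of 24370 genes tested (a mean of at least 1 in any of the 4 A375 groups), 3951 (16.2%) were called higher and 3615 (14.8%) lower in BRAFi + MEKi + DOX than in DMSO + DOX, together 7566 genes (31.0%), at a limma adjusted p under 0.05. The libraries of both groups did not overlap in 7209 of these. A change of at least 2-fold was reached by 2075 of the genes called higher and 1795 of those called lower, and at least 4-fold by 758 and 682. Protein-coding genes split 3012 higher to 3203 lower among 16321 tested, and long noncoding RNAs split 717 to 305 among 5544. The balance between directions rests on the scaling: when the libraries were rescaled to the same total, the median log2 fold change over all genes moved from 0.05 to 0.17, and 5139 genes were called higher and 2882 lower. Changes are given below on the scaling of the deposited values. The library kit did not mark strand, so genes that overlap another on the opposite strand may hold its reads, among the genes described ETV4 (DHX8), CA9 (ARHGEF39), TGM2 (RPRD1B), ACSBG1 (IDH3A), CDKN1B (GPR19), IFIT2 (LIPA) and others named below. The p-values measure the spread among 3 libraries per group, which the study describes as independent experiments.

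The plot of levels by library shows 19 of the genes described below.

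**Figure D1:**
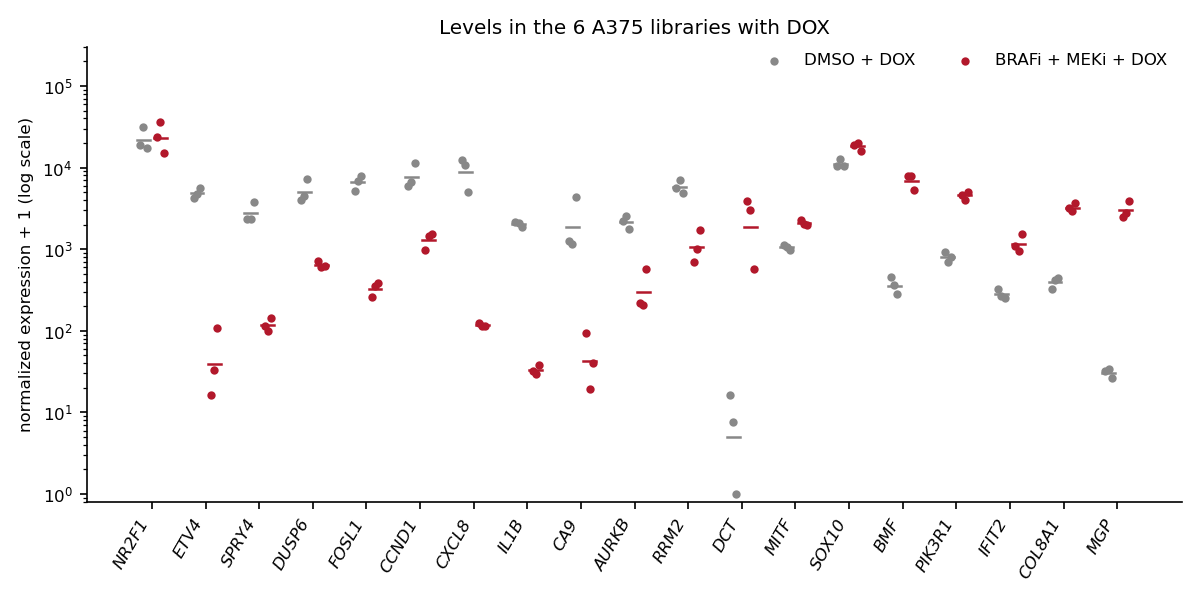
Normalized expression plus 1 (log axis) of 19 genes in the 3 DMSO + DOX (grey) and 3 BRAFi + MEKi + DOX (red) A375 libraries; each point is a library and each line the mean of the log2 values. NR2F1 overlapped between the groups, whereas ETV4 ran from 4193 to 5659 with DMSO + DOX and from 15.2 to 107 with the inhibitors, and MGP from 25.6 to 32.9 and from 2459 to 3892.

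The direct output of the pathway was switched down. Of 22 tested genes of ERK output and feedback, 19 were called lower and 0 higher, against 14.8% and 16.2% of all genes tested. The median log2 fold change was -2.24. Libraries did not overlap for 18 of the 19, near the share among all called genes (7209 of 7566). ETV4, an ETS transcription factor induced by ERK, stood at 4193, 4751 and 5659 with DMSO + DOX and at 15.2, 32.5 and 107 with the inhibitors, a log2 fold change of -6.96 ± 0.56 (SE, limma adjusted p = 1.1e-06). SPRY4, a Sprouty inhibitor of the pathway, was at 2372, 2345 and 3756 against 113, 98.4 and 141 (-4.55 ± 0.26, limma adjusted p = 5.7e-08). DUSP6, the phosphatase that removes the activating phosphates of ERK, went from 3998, 4475 and 7182 to 712, 603 and 628 (-2.96 ± 0.21, limma adjusted p = 3.3e-07). For each of these 3 genes the highest inhibited library lay far below the lowest control library. FOSL1, an AP-1 subunit, fell by 4.33 on the log2 scale, EGR1 by 4.20, ETV5 by 2.95, SPRY2 by 2.73 and CCND1, which encodes cyclin D1, by 2.56. ETV5 overlaps DGKG on the same strand, so its reads may not all be its own. MYC was at 270.3, 262 and 544 against 109, 125 and 227 (-1.21 ± 0.31, limma adjusted p = 0.0095), and the call was lost when BRAFi + MEKi + DOX replicate 1 was left out. The 3 members that did not pass were JUNB, FOS and ELK1, at -0.73, -0.66 and -0.16. Without DOX 19 of the 22 were likewise called lower, the median was -2.29, and the median difference between the responses was 0.02.

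Secreted factors held several of the deepest falls. Of 25 cytokines and secretory factors, 15 were called lower and 1 higher, against 14.8% and 16.2% of all genes tested, with a median of -2.48. CXCL8, the neutrophil chemokine interleukin-8, went from 12266, 10636 and 5071 with DMSO + DOX to 124, 112 and 114 with the inhibitors (-6.21 ± 0.25, limma adjusted p = 3.9e-09). IL1B, the inflammatory cytokine interleukin-1β, went from 2154, 2082 and 1869.6 to 31.0, 28.9 and 37.3 (-5.94 ± 0.37, limma adjusted p = 1.2e-07). The inhibited libraries of both genes sat in a narrow band far below every control library. GDF15 fell by 3.97, LIF by 2.54 and IGFBP3 by 2.84 on the log2 scale. The exception was IGFBP5, an insulin-like growth factor binding protein, which stood at 7142, 5852 and 3977 with DMSO + DOX and at 21285, 19073 and 24463 with the inhibitors (1.97 ± 0.17, limma adjusted p = 2.1e-06). CCL2 and NFKBIA did not pass, at 0.35 and -0.32. Of the 17 list members with a promoter in the RefSeq table, 5 (29.4%) held the NF-kB letters in the 250 bases before the start site. The AP-1 letters were in 3 (17.6%). Among the 27305 genes in that table the shares were 0.502% and 5.19%. CXCL8 held both sets of letters. The list was written by hand, and the NF-kB search was for an exact string without variants, GGAAATTCC. A share above that of the table was thus likely beforehand and is no independent support.

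More growth factor receptors and ligands were called lower than higher. Of 25 tested, 10 were called lower and 4 higher, against 14.8% and 16.2% of all genes tested, so the number called higher is near the background. The ligands AREG and TGFA, both of EGFR, fell by 5.30 and 2.97 on the log2 scale, and the receptors EPHA2, EGFR, FGFR1, MET and IGF1R by 2.36, 1.69, 1.03, 0.92 and 0.86. EGFR stood at 1521, 1228 and 1829 against 518, 361 and 544 (limma adjusted p = 8.4e-05). The members called higher were ERBB3, the neuregulin receptor, ERBB2, its signaling partner, and the ligands HBEGF and FGF1. ERBB3 went from 5610.1, 5683 and 4939 to 14279, 13013 and 11939.6 (1.27 ± 0.13, limma adjusted p = 7.3e-06), and FGF1 from 114, 72.8 and 44.7 to 1037, 993 and 669.6 (3.60 ± 0.40, limma adjusted p = 1.9e-05). All inhibited libraries lay above all control libraries for both.

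A group of FOXO targets and PI3K feedback genes went the other way. Of 20 tested, 13 were called higher and 2 lower, against 16.2% and 14.8% of all genes tested, with a median of 0.68. The number called lower is near the background. PIK3R1, the regulatory subunit of PI3K, stood at 926, 701 and 810.4 with DMSO + DOX and at 4659, 4022 and 5023 with the inhibitors (2.49 ± 0.14, limma adjusted p = 6.6e-08). PIK3IP1, a PI3K inhibitor, rose by 2.55 on the log2 scale, KLF9 by 1.80, SESN3 by 1.79 and TXNIP by 0.74. The pair called lower were IRS1, an insulin receptor substrate, at -0.89, and CCNG2 at -0.79.

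Of 27 apoptosis regulators tested, 3 were called higher and 9 lower, against 16.2% and 14.8% of all genes tested. The number higher was 1 without BRAFi + MEKi + DOX replicate 1. The list's median was -0.06, which became 0.07 with libraries rescaled to the same total. BMF, a BH3-only activator of cell death, went from 451, 361 and 277 to 7896, 7891 and 5236 (4.27 ± 0.23, limma adjusted p = 3.9e-08). The BH3-only genes PMAIP1 (NOXA) and BIK fell by 2.38 and 3.65 on the log2 scale, BIK from a low level of 40.0, 78.1 and 78.5. The survival genes BCL2, BCL2L1 and MCL1 fell by 1.53, 0.57 and 0.37. BCL2L11 (BIM) did not pass, at 359, 320.4 and 286 against 418, 355 and 492 (0.38 ± 0.15, limma adjusted p = 0.074).

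Genes of glycolysis and the hypoxia response fell as a broad front. Of 30 tested, 28 were called lower and 0 higher, with a median of -1.32. Libraries did not overlap for 27 of the 28, near the share among all called genes (7209 of 7566). CA9, a hypoxia-induced carbonic anhydrase, went from 1255, 1168 and 4377 to 93.4, 18.5 and 39.8 (-5.46 ± 0.73, limma adjusted p = 8.3e-05), with control replicate 3 more than 3 times as high as the others. ADM fell by 3.41, NDRG1 by 3.30, the glucose transporter SLC2A3 by 2.59, HK2 by 1.50 and LDHA by 1.46 on the log2 scale. GAPDH, often taken as a constant reference, went from 244078, 233515 and 279397 to 118970.0, 113466 and 105911 (-1.16 ± 0.14, limma adjusted p = 5.2e-05). Of 41 mTORC1 targets, several of which are glycolytic and stand in both lists, 29 were called lower and 0 higher (median -0.91). Without replicate 3 of all 4 groups the mTORC1 median was -0.60, with 28 called lower and 1 higher. Of 23 genes of cholesterol synthesis and uptake, 12 were called lower and 1 higher, against 14.8% and 16.2% of all genes tested. STARD4, which carries cholesterol between membranes, went from 1351, 996 and 738 to 359.9, 261 and 212 (-1.88 ± 0.23, limma adjusted p = 3.7e-05). INSIG1, which holds the sterol sensor SCAP in the endoplasmic reticulum, stood at 1015, 849 and 737 against 322, 332 and 366 (-1.34 ± 0.16, limma adjusted p = 4.3e-05), and the groups did not overlap for either gene. Of 24 ATF4 stress response genes, 11 were called lower and 1 higher, with a median of -0.65. This list leaned on DMSO + DOX replicate 3, whose median level was 1.29 log2 units above the mean of the 12 A375 libraries, against 0.01 and -0.01 in replicates 1 and 2. Without that library the median was -0.19, with 10 called lower and 3 higher, and without replicate 3 of all 4 groups it was -0.09, with 9 lower and 5 higher. Among the genes called lower was the serine synthesis enzyme PHGDH, at 7619.5, 7626 and 20687 against 3137, 3447 and 3319.7 (-1.69 ± 0.27, limma adjusted p = 0.00038), whereas ATF3 rose by 1.85.

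Most ribosomal protein genes, and part of the nucleolar and respiration genes, fell by small amounts. Of 36 cytosolic ribosomal protein genes, 29 were called lower and 0 higher, with a median of -0.47. RPS2 stood at 50231, 64504 and 65061 against 28815, 33431 and 31979 (-0.92 ± 0.14, limma adjusted p = 0.00031). Of 30 nucleolar MYC targets, 17 were called lower and 0 higher (median -0.42), led by FBL, the rRNA methyltransferase fibrillarin, at -1.57. Of 36 oxidative phosphorylation subunits, 12 were called lower and 1, NDUFB5, higher (median -0.27). Over all genes tested 14.8% were called lower and 16.2% higher. The 3 counts of lower genes depend on scaling or on single libraries. With libraries rescaled to the same total they became 19, 13 and 7. Without BRAFi + MEKi + DOX replicate 1 the ribosomal count was 19 and the nucleolar count 11, and without DMSO + DOX replicate 2 the oxidative phosphorylation count was 7, near the share over all genes. The oxidative phosphorylation median was then -0.17, and it was -0.14 with libraries rescaled to the same total.

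The plot of list medians sets the responses with and without DOX side by side.

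**Figure D2:**
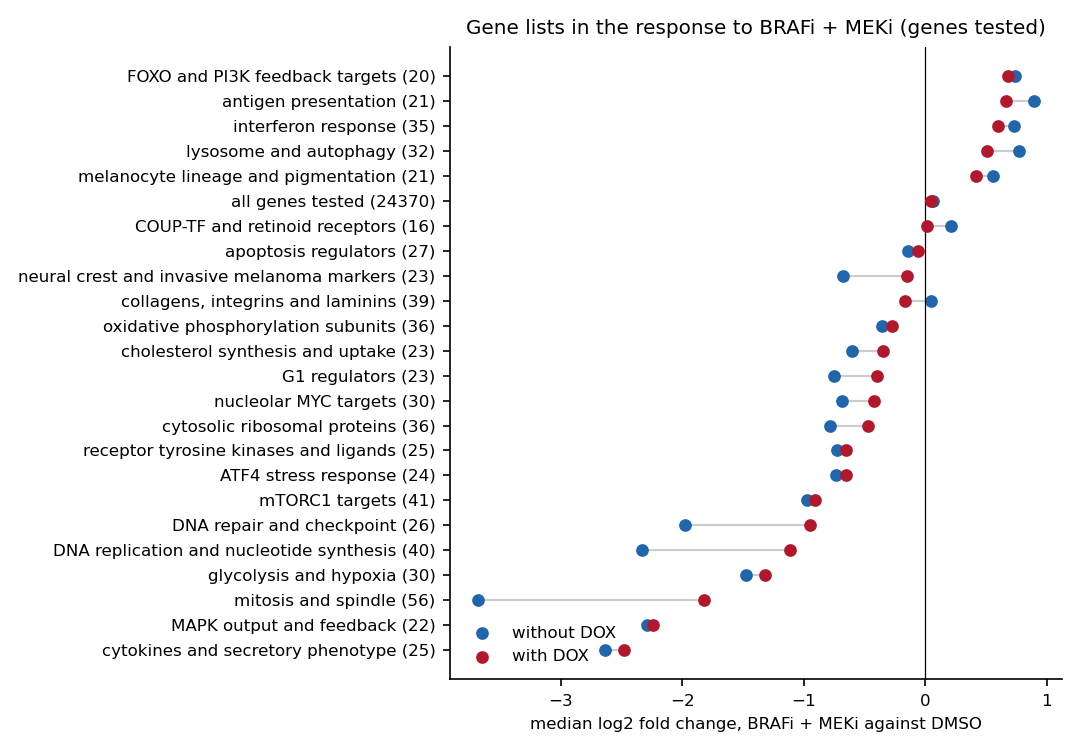
Median log2 fold change of each gene list in BRAFi + MEKi + DOX against DMSO + DOX (red) and in BRAFi + MEKi against DMSO (blue), with the number of genes tested in brackets. The widest gaps were those of mitosis (-1.82 with DOX and -3.68 without), DNA replication (-1.11 and -2.33) and DNA repair (-0.95 and -1.98).

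Some pigment cell genes rose, in a line with little or no TYR and MLANA. Of 21 tested melanocyte lineage genes, 8 were called higher and 1 lower (median 0.42), against 16.2% and 14.8% of all genes tested, and 7 in all had a log2 fold change below 0. DCT, the melanin enzyme dopachrome tautomerase, held the largest rise of all genes tested: 15.3, 6.73 and 0 with DMSO + DOX, and 3854, 3003 and 569 with BRAFi + MEKi + DOX (8.55 ± 1.36, limma adjusted p = 0.00034). Replicate 3 was the lowest of both groups. MITF, the master regulator of melanocytes, went from 1124, 1065 and 979 to 2249, 2007 and 1994 (0.98 ± 0.15, limma adjusted p = 0.00024), and SOX10, which activates MITF, from 10594, 12670.2 and 10433 to 18802, 19845 and 16086 (0.70 ± 0.11, limma adjusted p = 0.00039). Neither factor overlapped between the groups. GPNMB rose by 1.05. The member called lower was CDK2, a cell cycle kinase that MITF also regulates and whose locus overlaps PMEL on the opposite strand, at -0.86. PMEL itself was at 38.4 to 49.0 against 68.0 to 92.4 and did not pass (0.85, limma adjusted p = 0.1). The MITF/TFE letters lay in the promoters of 9 of 17 matched members (52.9%), against 13.0% of all genes in the RefSeq table and 13.7% of the matched genes tested.

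Lysosomal genes were called higher more often than all genes. Of 32 tested, 18 were called higher and 4 lower, against 16.2% and 14.8% of all genes tested, with a median of 0.51. The number higher was 14 without BRAFi + MEKi + DOX replicate 1 or 2 and 15 without DMSO + DOX replicate 3. BRAFi + MEKi + DOX replicate 3 lay close to the controls over this list, with a median of -0.19 log2 units from the mean of the 12 A375 libraries, against 0.23 and 0.37 in replicates 1 and 2 and -0.30 to -0.25 in DMSO + DOX. PSAP, the precursor of the saposins, went from 26579.9, 28264 and 32751 to 80878, 77565 and 66428 (1.36 ± 0.13, limma adjusted p = 6.1e-06). CTSA, a lysosomal carboxypeptidase, went from 3452, 3894 and 3807 to 12505, 12038 and 7978 (1.52 ± 0.17, limma adjusted p = 2.6e-05), and LAMP1, the main protein of the lysosomal membrane, from 4259, 4263 and 3333 to 7043, 7173 and 5617 (0.74 ± 0.15, limma adjusted p = 0.0021). For each of these 3 genes all inhibited libraries were above all controls. The members called lower were CTSB, CTSL, NPC2 and ATP6V0D2, the last from 8.36, 4.07 and 14.5, and 1 was called lower once all library totals were made equal. With 1 library left out the number lower ranged from 0 to 4, and it was 0 without DMSO + DOX replicate 3 or without BRAFi + MEKi + DOX replicate 3. The same MITF/TFE letters lay in 11 of the 21 matched lysosomal promoters (52.4%), and several times in the LAMP1 stretch.

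Neural crest and invasive markers were called about as often as other genes. Of 23 tested, 4 were called higher and 5 lower, near the 16.2% and 14.8% of all genes tested. Lower were NT5E (CD73), LOXL2, AXL, TNC and ZEB1. AXL, a receptor linked to the invasive melanoma state, went from 7703, 7255 and 9767 to 2908, 2649.8 and 2620.4 (-1.59 ± 0.11, limma adjusted p = 3.3e-07), and NT5E fell by 4.34 on the log2 scale. Higher were SNAI2, ERBB3, SOX2 and CCN2. SNAI2, a neural crest transcription factor, rose from 19.8, 7.15 and 5.46 to 115, 115 and 77.2 (3.31 ± 0.43, limma adjusted p = 7.6e-05). NGFR was not called, at 630.0, 814 and 2144 against 768, 834 and 321. In these libraries replicate 3 was the highest control and the lowest inhibited library for NGFR. Without replicate 3 of all 4 groups, 10 of the 23 were called lower.

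Matrix genes went both ways. Of 39 collagens, integrins and laminins, 13 were called higher and 15 lower, against 16.2% and 14.8% of all genes tested. COL3A1, a fibrillar collagen, was near 0 with DMSO + DOX at 0.89, 0 and 8.24 and reached 237, 219 and 149 with the inhibitors (6.26 ± 0.69, limma adjusted p = 1.8e-05). COL8A1 rose from 322, 419 and 447 to 3153, 2954 and 3630.4 (3.04 ± 0.16, limma adjusted p = 3.9e-08). Against these, the basement membrane collagens COL4A1 and COL4A2 fell (log2 fold changes of -1.60 and -1.96), as did the integrin ITGB3 (-3.13) and FN1, fibronectin (-2.76). COL6A3 was among the deepest falls at 89.8, 92.6 and 1262 against 3.74, 3.08 and 4.03, with control replicate 3 more than 10 times as high as the others (-5.58 ± 0.93, limma adjusted p = 0.00049). FN1 was not called without DOX, at -1.07, but the difference between its responses did not pass (-1.69 ± 0.71, limma adjusted p = 0.62).

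Interferon and antigen presentation genes rose in part. Of 35 interferon response genes, 15 were called higher and 1, ISG20, lower, with a median of 0.60. The number lower was 2 without DMSO + DOX replicate 1 and 3 without BRAFi + MEKi + DOX replicate 3. IFIT2 went from 319.7, 269.6 and 252 to 1092, 957 and 1537 (2.07 ± 0.18, limma adjusted p = 2e-06) and STAT2, a subunit of the interferon-activated factor ISGF3, from 1779.9, 1633 and 1443 to 4159, 4291 and 4506 (1.42 ± 0.16, limma adjusted p = 2.2e-05). IFITM3 and OAS3 did not pass, at 0.22 and -0.34. Of 21 antigen presentation genes, 9 were called higher and 0 lower, and 16.2% and 14.8% of all genes tested were. B2M, the light chain of class I molecules, went from 32428, 30003 and 27466 to 50664, 50791 and 41079 (0.66 ± 0.12, limma adjusted p = 0.0012), and CIITA, the activator of class II genes, from 752, 572 and 305 to 1754, 2057 and 1149 (1.66 ± 0.38, limma adjusted p = 0.0046). The HLA genes share sequence, so counts of single HLA genes are uncertain. Without BRAFi + MEKi + DOX replicate 1, and likewise without replicate 2, 5 of the 21 were called higher, and without replicate 3 of all 4 groups 15 were.

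Among nuclear receptors and retinoid genes, 6 of 16 tested were called higher and 5 lower, against 16.2% and 14.8% of all genes. The 5 lower became 3 without DMSO + DOX replicate 2 or 3, without BRAFi + MEKi + DOX replicate 3 and after rescaling to equal totals, and 2 without replicate 3 of all 4 groups. NR2F2, the closest relative of NR2F1, did not pass at -0.08. TGM2, a transglutaminase induced by retinoic acid, went from 20162, 30163 and 35867 to 1109.7, 1465 and 670.2 (-4.76 ± 0.35, limma adjusted p = 4.9e-07). In contrast, the retinoic acid receptor RARB and the retinoid enzymes DHRS3 and CYP26B1 rose by 1.30, 1.46 and 2.95 on the log2 scale. DHRS3 went from 5648, 6468 and 7209 to 18251, 20766 and 14536 (limma adjusted p = 2e-06).

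Outside these lists, the largest rises among abundant protein-coding genes included several secreted or matrix proteins. MGP, an inhibitor of calcification, went from 31.1, 32.9 and 25.6 to 2459, 2799 and 3892 (6.61 ± 0.24, limma adjusted p = 2.3e-09). ANGPTL7 rose from 62.2, 66.2 and 8.44 to 6388, 5258 and 2472 (6.99 ± 0.77, limma adjusted p = 1.8e-05), CCN3 by 5.00 and MATN2 by 5.42 on the log2 scale. The lipid genes ACSBG1, an acyl-CoA synthetase, and CD36, a fatty acid transporter, rose by 7.57 and 5.56. ACSBG1 started from 1.53, 0 and 0.61, and a log2(value + 1) scale understates the change of such low genes. ANGPTL7 lies inside MTOR, which runs on the opposite strand. The deepest falls were SH2D1B, an adaptor best known from natural killer cells, from 423, 479.6 and 919 to 3.66, 1.88 and 3.30 (-7.21 ± 0.50, limma adjusted p = 3.3e-07), VGF at -5.43, COL13A1 at -5.41, SYTL5 at -5.26 and CEMIP, a hyaluronidase, at -5.20.

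The cell cycle program fell, and it fell less than without DOX. All 56 tested genes of mitosis and the spindle were called lower in BRAFi + MEKi + DOX than in DMSO + DOX, with a median log2 fold change of -1.82. Libraries did not overlap for 55 of them, near the share among all called genes (7209 of 7566). Of 40 genes of DNA replication and nucleotide synthesis, 37 were called lower and 0 higher (median -1.11). Of 26 genes of DNA repair and the checkpoints, 18 were called lower and 0 higher (median -0.95). Over all genes tested 14.8% were called lower and 16.2% higher. In bulk RNA, fewer cycling cells and less RNA per cell cannot be told apart. AURKB, a mitotic kinase, had the deepest fall of the mitotic list with DOX, from 2200.1, 2524 and 1787 to 216, 206 and 566 (-2.87 ± 0.38, limma adjusted p = 9e-05). MCM6, a subunit of the replicative helicase, went from 3819, 3593 and 3528 to 1294, 1232 and 2107 (-1.28 ± 0.19, limma adjusted p = 0.00018). Replicate 3 was the highest inhibited library of both genes, and MCM6 and AURKB did not overlap between the groups.

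Of 23 G1 regulators upstream of this program, 10 were called lower, against 14.8% of all genes tested, and 4 higher. The number called higher is near the 16.2% of all genes tested, and it was 2 without DMSO + DOX replicate 2 or 3, without BRAFi + MEKi + DOX replicate 1 or 3, and without replicate 3 of all 4 groups. E2F1, the activator of replication genes, went from 913, 1105 and 1317 to 300.4, 303 and 466 (-1.65 ± 0.24, limma adjusted p = 0.00015). SKP2, which marks p27 for degradation, fell by 1.35 on the log2 scale. The brakes CDKN1B (p27) and CDKN2C (p18) rose, CDKN1B from 1732, 1569 and 1745 to 2377, 2924 and 2775 (0.67 ± 0.14, limma adjusted p = 0.0025), CDKN2C by 1.12, and RB1 and RBL2 by 0.39 and 0.32. CDKN1A (p21) did not pass, at 8620.5, 10536 and 6039 against 6546, 8201 and 3192 (-0.56 ± 0.36, limma adjusted p = 0.26). It passed, as lower, only in the fit with replicate number as a block.

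Without DOX, 5007 genes (20.5%) were called higher and 4628 (19.0%) lower by the inhibitors. The 2 responses share no library. Of the genes called in both, 6463 of 6464 went the same way, while 1102 were called with DOX only and 3171 without DOX only, a split of calls that is not itself a test. Across all 24370 genes tested the log2 fold changes correlated at r = 0.80 with a slope of 0.69 (with DOX on without DOX), and across the 12442 with a mean of at least 100 at r = 0.93 with a slope of 0.77, given as a description because genes are not independent. The difference itself was tested in all 12 A375 libraries. It was above 0 for 107 genes (0.439% of those tested) and below 0 for 5 (0.0205%), together 112 (0.460%), and 1766 genes had an unadjusted p under 0.05. Of the 107, 94 were called lower in both responses, 11 lower without DOX and not called with it, and 2 were called higher with DOX.

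**Figure D3:**
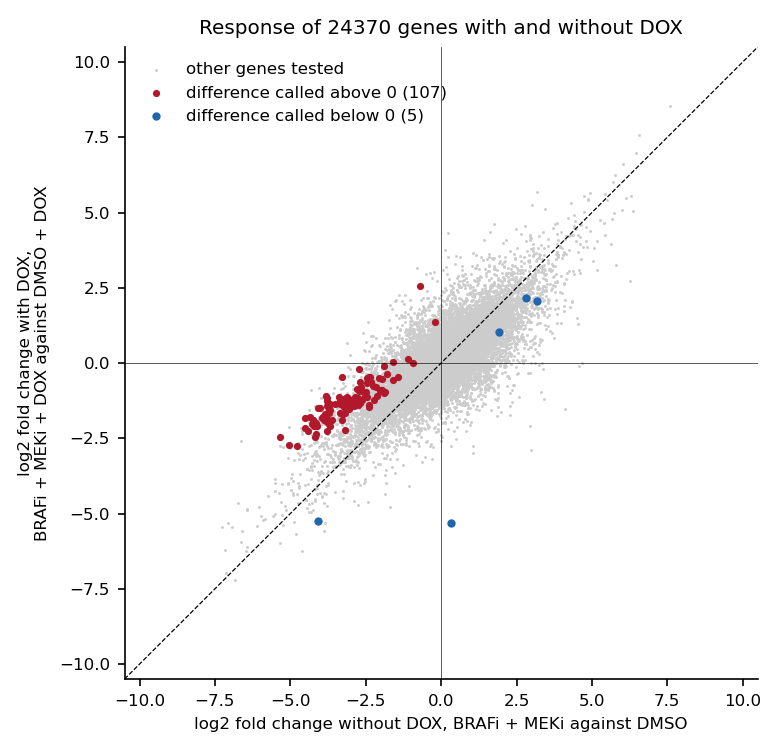
Log2 fold change of 24370 genes in the response with DOX (vertical) against the response without DOX (horizontal), where each point is a gene and the dashed line marks equal responses. Genes called in the difference are red (107, above the line) or blue (5, below it); most red points lie where both responses were negative.

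Cell division genes were a large part of those with the smaller fall. The difference was called above 0 for 23 of the 56 mitosis genes, 13 of the 40 replication genes and 8 of the 26 repair genes, 44 genes in all, against 0.439% of all genes tested. A further 4 of the 107 were in other lists only and 59 were in none. The median mitosis gene kept 28.7% of its control level with DOX and 8.16% without. For replication genes these shares were 46.6% and 20.1%, and for repair genes 54.4% and 25.8%. All 56 mitosis genes and all 40 replication genes had a difference above 0, called or not. This was not particular to cell division. All 36 cytosolic ribosomal protein genes had it too, with a median of 0.32 and 0 called. So did 31 of 41 mTORC1 targets, 28 of 36 oxidative phosphorylation subunits and 24 of 30 glycolysis genes, but only 3 of 32 lysosomal genes. Over all genes tested it was 12353 of 24370. For the mitosis list the gap lay on the inhibitor side. The median mitosis gene was 1.80 log2 units higher in BRAFi + MEKi + DOX than in BRAFi + MEKi, and 0.00 apart between DMSO + DOX and DMSO. For 106 of the 107 called genes every BRAFi + MEKi + DOX library was above every BRAFi + MEKi library. For 9 of them every DMSO + DOX library was below every DMSO library. The 107 were chosen on these same libraries, so such separation largely follows from the choice and is no further support.

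How many passed depended on single libraries. Without BRAFi + MEKi replicate 3, whose cell cycle genes stood above those of its 2 companions, 190 genes were called above 0, 44 of them in the mitosis list and 20 in the replication list. Without DMSO replicate 1 it was 39 genes, with 5 of mitosis and 8 of replication, and without BRAFi + MEKi replicate 1 it was 41, with 5 of mitosis. With any of DMSO replicates 2 and 3, DMSO + DOX replicates 2 and 3, BRAFi + MEKi replicate 2 or BRAFi + MEKi + DOX replicate 3 left out it was 45 to 69. Without replicate 3 of all 4 groups it was 186 genes, with 41 of mitosis. The named differences kept their direction in each. Like DMSO + DOX replicate 1, BRAFi + MEKi replicate 3 may have been sequenced deeper. Its commonest low value was 0.51, against 0.85 and 0.98 in BRAFi + MEKi replicates 1 and 2.

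**Figure D4:**
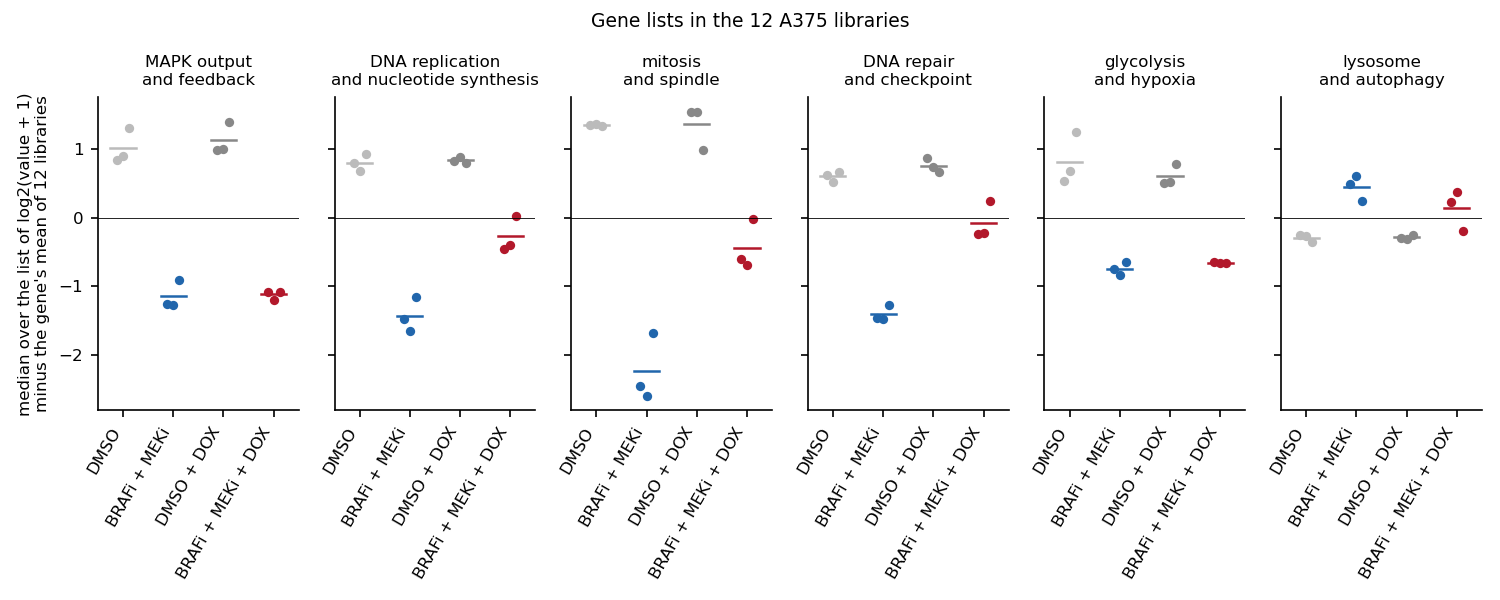
Each point is a library: the median over a gene list of log2(value + 1) minus each gene's mean over the 12 A375 libraries, with lines at group means. In the mitosis panel DMSO + DOX and DMSO lay side by side, BRAFi + MEKi libraries at -2.45, -2.61 and -1.68 and BRAFi + MEKi + DOX libraries at -0.61, -0.69 and -0.01, whereas in the MAPK panel the inhibited groups overlapped.

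CDC20, the activator of the anaphase-promoting complex, shows the pattern. With DOX it went from 4958, 6186 and 3744 to 1193, 1330.4 and 1659.8 (-1.81 ± 0.24), and without DOX from 6893, 6476 and 5869 to 204, 238 and 436 (-4.53). The difference was 2.71 ± 0.34 (SE, limma adjusted p = 0.0042), and it passed in every alternative fit tried. RRM2, the ribonucleotide reductase subunit that makes deoxynucleotides, went from 5687, 7019 and 4885 to 703, 1007 and 1701 with DOX and from 8574, 7389.9 and 7404 to 129, 158 and 345 without, a difference of 2.89 ± 0.47 (limma adjusted p = 0.015) that was lost in 4 of 20 alternatives, those without DMSO replicate 1, DMSO + DOX replicate 3 and BRAFi + MEKi replicate 1 or 2. PLK1, the polo-like kinase of mitotic entry, had inhibited libraries of 443, 469 and 725 with DOX and of 111, 126 and 266 without (difference 2.04, limma adjusted p = 0.031), a call lost in 9 of the 12 fits with 1 library left out. In all 3 genes the inhibited libraries with DOX were higher than those without, although below the controls. SHCBP1, a protein of the cytokinetic midbody, had a difference of 2.72 ± 0.29 (limma adjusted p = 0.0021), with inhibited libraries of 876, 753 and 826 with DOX and of 115, 93.5 and 182 without. E2F1, the licensing factor CDC6 and the Fanconi anemia protein FANCD2 had differences of 2.05, 1.84 and 1.96. The E2F1 call was lost in 4 of 20 alternatives, those without DMSO replicate 3, DMSO + DOX replicate 2 and BRAFi + MEKi replicate 1 or 2, that of FANCD2 without replicate 3 of all 4 groups, and that of CDC6 in none. MKI67 had a difference of 2.12 that did not pass (limma adjusted p = 0.2), nor did that of AURKB (1.76, limma adjusted p = 0.34). CDC25B, which fell by 1.41 with DOX and by 1.61 without, was one of the mitosis genes with little difference (0.20 ± 0.15, limma adjusted p = 0.85).

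The promoters of these genes share sequence features. Promoters were not searched in choosing the genes, but the lists were written by hand and the letters are known sites of these programs. Shares by list, here and above, were thus likely beforehand and are no independent support. The CHR letters lay within 250 bases before the start site in 28 of the 49 matched mitosis genes (57.1%) and in 2 of 36 replication genes (5.56%), against 16.1% of the genes in the RefSeq table and 13.0% of the 14555 matched among those tested. The E2F core lay in 17 of 36 replication genes (47.2%) and 5 of 49 mitosis genes (10.2%), against 7.15% of the table and 10.0% of the matched genes tested, so the mitosis share is at the background. CCAAT was in 38 mitosis promoters (77.6%), against 37.0% and 40.9%. Its share differed widely among the other lists, from 11.1% for oxidative phosphorylation to 88.9% for cholesterol synthesis and uptake. It was 75% for both the ATF4 and the antigen presentation lists, so CCAAT is not particular to the cell division lists. Of the 83 matched genes called above 0 in the difference, 61 (73.5%) held CCAAT, 24 (28.9%) CHR and 19 (22.9%) the E2F core. CHR was also in 35.3% of melanocyte lineage and 28.6% of MAPK output promoters, lists with 0 genes called in the difference. It was in 0% of oxidative phosphorylation promoters. The CHR share thus does not set the called genes apart from every other list. In the CDC20 stretch a CHR stands beside a CCAAT box close to the start site. A match of letters is a description and no evidence of binding.

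Called differences also lay outside the cell division lists. CCN1 and CCN2, matricellular proteins known as targets of YAP and TEAD, differed together. CCN1 was at 3176, 2916 and 1589.9 with DMSO + DOX and at 2296, 2302 and 2319 with BRAFi + MEKi + DOX (-0.09, limma adjusted p = 0.79), whereas without DOX it went from 2816, 2766 and 2250.4 to 661, 668 and 794, a difference of 1.79 ± 0.29 (limma adjusted p = 0.014). CCN2 rose with DOX from 815, 799 and 799.8 to 1909.5, 1963 and 2441 (1.38 ± 0.21, limma adjusted p = 0.00026) and was not called without it (-0.21), a difference of 1.58 ± 0.30 (limma adjusted p = 0.032). DHCR7, the last enzyme of cholesterol synthesis, fell by 1.00 with DOX and by 1.89 without (limma adjusted p = 0.038). TIMP3, a metalloproteinase inhibitor, had log2 fold changes of -2.24 with DOX and -3.20 without (limma adjusted p = 0.032). PDGFB did not move detectably with DOX, at 87.0, 104 and 131 against 57.5, 109 and 70.6, and without DOX went from 208, 222 and 245 to 12.6, 19.0 and 45.2. Its difference of 2.81 (limma adjusted p = 0.044) was lost in 13 of 20 alternatives. The call was lost in 4 of 20 for CCN1, those without DMSO replicate 1 or 2 and BRAFi + MEKi replicate 1 or 2, in 11 for CCN2 and for DHCR7, and in 12 for TIMP3, most of them with a single library left out.

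**Figure D5:**
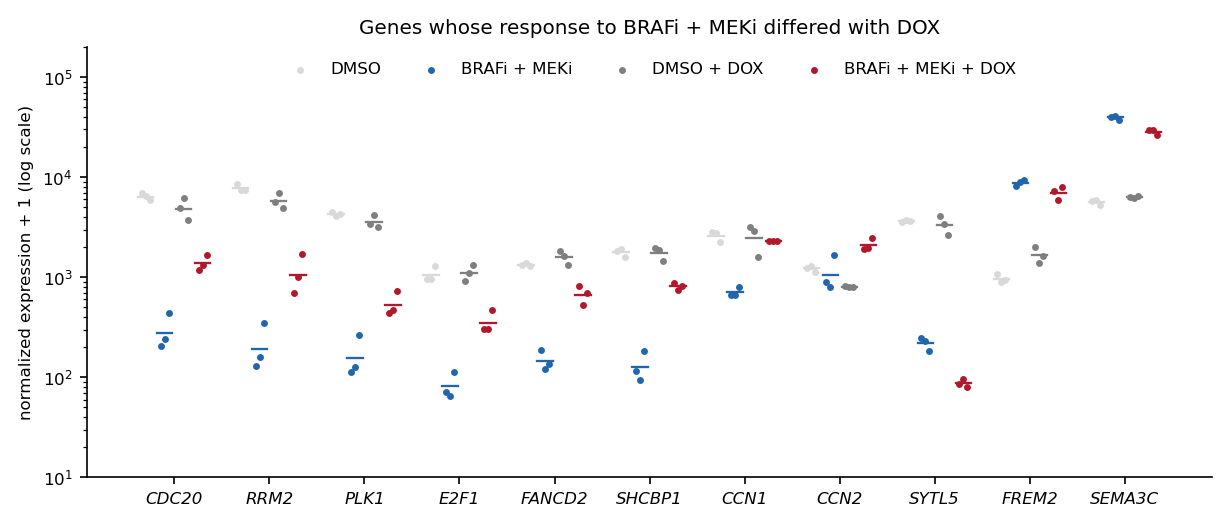
Normalized expression plus 1 (log axis) of 11 genes called in the difference, in all 12 A375 libraries; each point is a library and each line the mean of the log2 values. For CDC20, RRM2, PLK1, E2F1, FANCD2 and SHCBP1 the BRAFi + MEKi + DOX libraries (red) lie between the BRAFi + MEKi libraries (blue) and the controls.

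Below 0, the difference was called for SYTL5, FREM2, SVIL, SEMA3C and UTP14C. SYTL5, a Rab27 effector of vesicle traffic, fell further with DOX, from 4112, 3444 and 2631 to 85.5, 95.4 and 78.3, than without, from 3590.0, 3715 and 3678 to 246, 230.1 and 181 (difference -1.19 ± 0.23, limma adjusted p = 0.043). FREM2, an extracellular matrix protein, rose less with DOX, from 2018, 1401 and 1644 to 7302, 5878 and 8063, than without, from 1070.0, 902 and 930.1 to 8185, 8946 and 9364 (-1.12 ± 0.20, limma adjusted p = 0.028). SEMA3C and SVIL likewise rose by 2.17 and 1.03 with DOX and by 2.81 and 1.90 without. UTP14C, a low gene singled out with its values known, was listed at 24.1, 64.7 and 36.4 with DMSO + DOX, at 0 in all 6 libraries of DMSO and BRAFi + MEKi + DOX, and at 0, 0.98 and 0 with BRAFi + MEKi. It overlaps ALG11 on the same strand and is a retrocopy of UTP14A, so its reads are uncertain. The call was lost in 12 of 20 alternatives for SYTL5 and for SEMA3C, in 9 for FREM2 and in 7 for SVIL, most of them with a single library left out.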

How the data were processed

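RNA was prepared with a TruSeq v2 kit, which does not mark strand. Per the labels and the study's methods, the authors used STAR 2.7.0 for alignment (GRCh38, GENCODE 35) and RSEM 1.2.28 for quantification. The authors' values were normalized by them with DESeq2 1.28.1 before deposit. The deposited values are this normalized expression signal per gene and library. They give depth only indirectly, through the commonest low value of each library. Here log2(value + 1) of the 12 A375 libraries was fitted with limma 3.58.1 (R 4.3.3), 1 mean for each of 4 groups, for 24370 genes with a group mean of at least 1, and p-values were adjusted over all of them by the Benjamini-Hochberg method, with calls at 0.05. A count test had been planned for the case of raw counts and was not used. The difference was the response with DOX minus that without. The fit was tested on simulated data.

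The libraries, gene lists and alternatives were chosen with earlier results of these data known. Genes were named by rule: NR2F1, the 12 largest rises and falls among called, non-overlapping protein-coding genes with a mean of at least 100, up to 4 called members per list, the 5 largest differences each way, and 11 standard markers. Other list members are named as examples after their values were seen. Promoters came from RefSeq (GRCh38.p14), and letters were searched on both strands in the 250 bases before the start site. Gene positions are from GENCODE 44 on GRCh38. The libraries of the other 2 cell lines were not analysed here. Results on a few genes that the rule names are not reported here.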

Additional observations from a re-analysis of the deposited data

Results flagged for a closer look

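The following responses differed with and without DOX in a limma test of the difference itself over 12 A375 libraries (log2 fold change with DOX minus that without, adjusted p under 0.05). Above 0 were RRM2 (2.89), PDGFB (2.81), SHCBP1 (2.72), CDC20 (2.71), BIRC5 (2.33), E2F1 (2.05), FANCD2 (1.96) and CHAF1A (1.01). Below 0 were SYTL5 (-1.19), FREM2 (-1.12), SVIL (-0.88) and SEMA3C (-0.64). BIRC5 encodes survivin, which acts both in mitosis and in apoptosis control, and CHAF1A a subunit of the chromatin assembly factor that follows the replication fork. The call was lost in 6 of 20 alternatives for BIRC5 and in 9 for CHAF1A, each with a single library left out. No outlier test was run within groups of 3 libraries.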

How the results depend on the processing

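The response with DOX kept its number of calls within 1.5 times in every alternative: another pseudocount, another filter, only the 6 libraries compared, a replicate block, rescaling to the same total, array weights and each library left out. The difference was less stable. The 107 genes above 0 became 211 with array weights, 186 without replicate 3 of all 4 groups, and 39 to 190 with 1 library left out. The 5 genes below 0 became 8 with the replicate block, 25 with array weights, 49 without replicate 3 of all groups, and 1 to 19 with 1 library left out. Fitting only the libraries compared did not apply to the difference, which uses all 12. Among lists, with 1 library left out the called members ranged from 11 to 21 for nucleolar MYC targets, 7 to 16 for oxidative phosphorylation, 19 to 32 for ribosomal proteins, 5 to 7 for the neural crest genes lower, and 5 to 13 for antigen presentation. In the difference they ranged from 8 to 20 for replication, 5 to 44 for mitosis and 3 to 8 for repair. Without replicate 3 of all groups, the neural crest genes lower were 10, antigen presentation 15, mitosis 41 and repair 5. Rescaling to the same total left 7 oxidative phosphorylation and 19 ribosomal genes lower. The cause of these shifts was not tested.

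With the replicate block, 4319 genes were called higher and 3964 lower in the response, 153 above 0 in the difference, and 8 neural crest genes lower. The labels do not say that a replicate number marks a shared culture or day, and the deviations did not settle it. Same-numbered libraries correlated at r = 0.05 to 0.10 between DMSO + DOX and BRAFi + MEKi + DOX. The range was 0.05 to 0.23 between DMSO + DOX and DMSO, and 0.05 to 0.17 between the inhibited groups, not over 0.1 in every pair. In these pairs 6 of 6, 2 of 6 and 5 of 6 libraries correlated best with their own number. For DMSO with BRAFi + MEKi it was 5 of 6, for DMSO + DOX with BRAFi + MEKi 4 of 6, and for BRAFi + MEKi + DOX with DMSO 2 of 6. The main fit held no replicate term. CDKN1A passed only with the block. Across 122 results on named genes, most alternative values kept their call, and calls were lost in 11 results. The losses of the named differences are given with each gene above. A call was gained in 1 result. NR2F1 moved, with a log2 fold change that ranged from -0.21 to 0.42. No called value changed sign. Depth is not given, but the commonest low value of each library may be near that of 1 read. It ran from 0.49 in DMSO + DOX replicate 1 to 1.19 in DMSO replicate 3. A value of 0 may therefore stand for a level below about that of its library, and no exact limit was set.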
